A study of Homo sapiens with 5 samples.

Results

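The genes described here are 35 genes of protein folding in the endoplasmic reticulum and of the unfolded protein response. They were taken as the rows of the deposited gene table whose symbol stood on a list of names, and all 35 names were found among 28442 gene rows. They comprise 7 chaperones and co-chaperones, 3 lectin chaperones, 6 disulfide isomerases and oxidases, 5 sensors and transcription factors, 8 genes of degradation, 2 luminal stress factors and 4 genes of translocation, signal peptidase and export. Comparisons between single libraries were limited to genes whose mean level reached 5 CPM (counts scaled to library size), which 10738 genes and 34 of the 35 passed. The gene left out was DERL3, a channel component of degradation, with 3 to 12 counts in any library.

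RNA was measured in TOV21G, an established line of human ovarian clear cell carcinoma, in a study of the dependence of ARID1A-mutated ovarian cancer on HDAC6, a cytoplasmic deacetylase of tubulin and other proteins. Cells received a control hairpin (shControl) or a hairpin against HDAC6 (shHDAC6) in a shRNA experiment, or a vehicle or one of the HDAC6 inhibitors ACY1215 and CAY10603 in a drug experiment. The labels join shControl and the vehicle as 2 controls, and shHDAC6, ACY1215 and CAY10603 as 3 libraries of repressed HDAC6. Each treatment has 1 library. All cells were of 1 line, the hairpins were carried by virus with puromycin selection, 2 hairpins against HDAC6 are named with no statement of which one this library holds, and the sources used here state neither doses nor times. In such bulk RNA, fewer cells with a transcript and less of it per cell cannot be told apart.

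The endoplasmic reticulum folds and glycosylates proteins of the secretory route. When unfolded proteins build up there, the sensors IRE1 (ERN1), PERK (EIF2AK3) and ATF6 are released from the chaperone BiP (HSPA5) and activate XBP1, ATF4 and ATF6, which raise chaperones, oxidases, degradation factors and export machinery. Many of these target genes carry the endoplasmic reticulum stress response element (ERSE) in their promoters, which binds ATF6 and XBP1 together with NF-Y. Secretory tumours are known to lean on this response, and HDAC6 is known for carrying misfolded cytosolic proteins to aggresomes.

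The libraries held 43498805 to 57442767 counts, of which the 35 genes took 1.19% to 1.45%. The targeted gene HDAC6 was measured at 47.9 CPM in the shControl library, 29.2 CPM with shHDAC6, 51.0 CPM in the vehicle, 33.1 CPM with ACY1215 and 48.2 CPM with CAY10603. The hairpin library was thus lower in the targeted transcript. The inhibitors act on the protein, so their libraries are not checked by it. Of 10 markers of the labelled cancer, KRT7 and NAPSA were under 1 CPM in every library, and the others were present throughout, among them SPP1 at 272 to 461 CPM and PAX8 at 103 to 144 CPM. All 4 endothelial and all 4 erythroid markers were under 1 CPM, as were 3 of 5 leukocyte markers, 4 of 6 fibroblast markers and 3 of 6 markers of plasma and other secretory cells (IGJ, MZB1 and TNFRSF17). The summed level of the last list was highest in shHDAC6 (69.4 CPM) and lowest in ACY1215 (38.1 CPM), and most of it was SDC1. Its part in the results below was not tested.

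Promoter sequence is shown first, because some of the genes share a known regulatory element. The list was drawn up by name and not by sequence, but it holds known targets of this response. The shares below are therefore not independent of the list. RefSeq promoter windows (build GRCh38.p14, 250 bases before to 50 after a gene's start) were found for 31 of the 35 genes. The ERSE, spelled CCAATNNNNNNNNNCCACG and searched on both strands, occurred in 8 of them (25.8%), which were HSPA5, HSP90B1, CALR, CANX, PDIA6, XBP1, CRELD2 and ERO1LB. Over all 27305 genes with a window the share was 0.0916%. The shorter ERSE-II, spelled ATTGG, any 1 base and CCACG, occurred in HYOU1, SDF2L1 and HERPUD1 (9.68%, against 0.0696% of all genes). The XBP1-binding UPRE, spelled TGACGTGG or TGACGTGA, occurred in HYOU1 only of the 31 (3.23%, against 1.44% of all genes), where it overlapped an ERSE-II. In all, 11 of 31 genes held an ERSE or ERSE-II, against 0.161% of all genes. A match describes letters in a window and is not a bound site.

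Stretches that hold an element are printed for 10 of these 11 genes (PDIA6 is not shown), 5′ to 3′ on the gene's own strand, with the fixed letters of each element in capitals. On the minus strand of the genome, HSPA5 is shown at chr9:125241344-125241593 and XBP1 at chr22:28800598-28800639. On the plus strand, HSP90B1 is shown at chr12:103930213-103930260 and CANX at chr5:179698764-179698809. In these 4 the element shown runs in the direction of the gene, with CCAAT ahead of CCACG. HSP90B1 also holds an ERSE on the opposite strand nearer its start, and CANX holds one in 2 other windows; these are not printed:
HSPA5: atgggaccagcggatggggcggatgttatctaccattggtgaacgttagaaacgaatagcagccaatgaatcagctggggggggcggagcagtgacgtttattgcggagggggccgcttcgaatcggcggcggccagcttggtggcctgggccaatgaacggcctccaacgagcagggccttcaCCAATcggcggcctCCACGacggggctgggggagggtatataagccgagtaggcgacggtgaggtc
HSP90B1: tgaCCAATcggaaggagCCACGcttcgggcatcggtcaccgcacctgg
CANX: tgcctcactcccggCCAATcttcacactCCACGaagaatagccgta
XBP1: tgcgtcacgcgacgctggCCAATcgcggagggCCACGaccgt

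In 3 further genes the ERSE lies on the opposite strand, so that the letters read CGTGG and then ATTGG. CALR is shown at chr19:12938369-12938414 and CRELD2 at chr22:49918539-49918589, both on the plus strand, and ERO1LB (named ERO1B by RefSeq) at chr1:236282168-236282208 on the minus strand:
CALR: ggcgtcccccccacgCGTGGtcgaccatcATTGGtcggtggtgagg
CRELD2: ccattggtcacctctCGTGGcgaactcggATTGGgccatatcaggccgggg
ERO1LB: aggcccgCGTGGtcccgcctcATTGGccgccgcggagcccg

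The compact ERSE-II, in which the same half-letters stand 1 base apart, is shown for SDF2L1 at chr22:21642097-21642142 and HERPUD1 at chr16:56932002-56932046 on the plus strand, and for HYOU1 at chr11:119057265-119057405 on the minus strand. The HYOU1 stretch holds 2 copies, and its first capital run, TGACGTGG, is the overlapping UPRE:
SDF2L1: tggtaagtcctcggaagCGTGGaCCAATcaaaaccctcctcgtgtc
HERPUD1: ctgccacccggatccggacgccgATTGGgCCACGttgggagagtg
HYOU1: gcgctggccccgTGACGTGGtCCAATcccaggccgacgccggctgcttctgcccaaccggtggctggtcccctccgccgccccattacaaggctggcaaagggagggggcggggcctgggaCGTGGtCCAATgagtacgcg

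**Figure D1:**
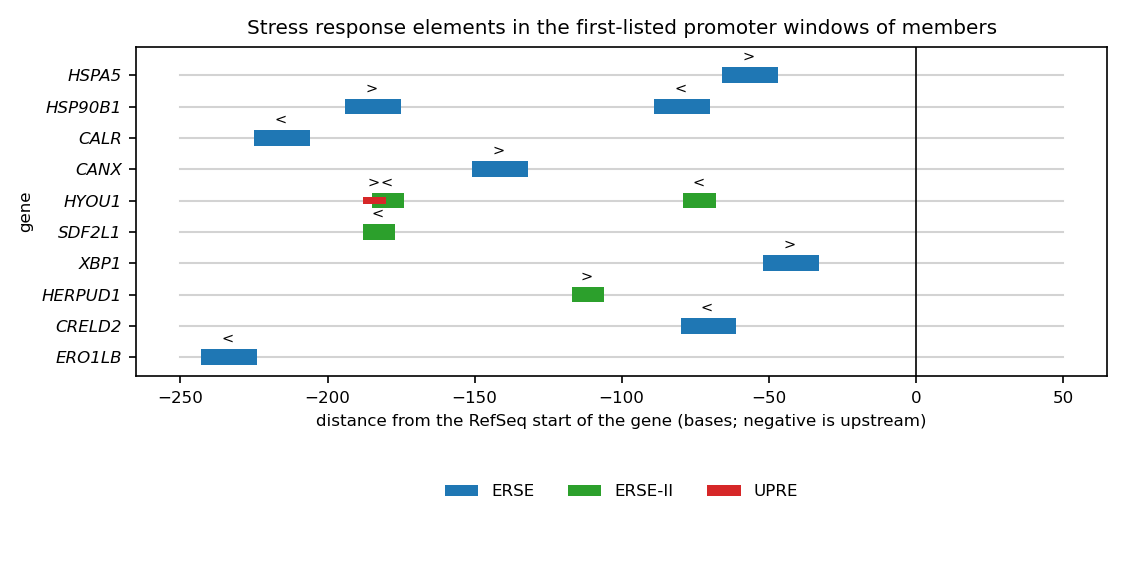
Positions of ERSE, ERSE-II and UPRE matches in the first-listed RefSeq promoter window of each gene that has one, in bases from the gene's start (x axis), with > for the gene's strand and < for the other. The HSPA5 match ends 48 bases before the start, while those of CALR and ERO1LB begin over 200 bases before it.

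Levels between genes were compared as FPKM, which divides by length, averaged over the 5 libraries. The glucose-regulated chaperone HSP90B1 was the most abundant at 1469 FPKM, followed by the lectin chaperones CANX (661 FPKM) and CALR (618 FPKM) and the disulfide isomerase PDIA6 (428 FPKM). HSPA5 ranked 10 of 35 at 110 FPKM. Apart from DERL3 at 0.052 FPKM, the lowest were the ubiquitin ligase SYVN1 (2.02 FPKM), the sensor ERN1 (2.37 FPKM), the transcription factor CREB3L2 (2.73 FPKM) and CLGN, a calnexin-like chaperone best known from the testis (3.73 FPKM). The other sensors stood at 31.6 FPKM (EIF2AK3) and 15.5 FPKM (ATF6), well under the abundant chaperones.

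The comparison of all 3 repressed HDAC6 libraries with both controls was the only one with more than 1 library in each group. With edgeR's quasi-likelihood test, experiment type as a covariate and Benjamini-Hochberg adjustment, 0 of 13449 genes (0%) passed an adjusted p of 0.05, and therefore 0 of the 34 genes of the set that were tested. At an unadjusted p under 0.05 edgeR had 100 genes (0.744%), of which 0 were in the set. DESeq2 had 112 genes, of which 1 was in the set (SDF2L1, DESeq2 unadjusted p = 0.040). With limma-voom there were 121, of which 0 were in the set. After adjustment 0 genes passed in either. In the set 26 genes were higher and 8 lower in repressed HDAC6, with a median log2 fold of 0.08, beside 0.00 over all tested genes, of which 50.4% were higher. SDF2L1, a co-chaperone, had the smallest p, with a pooled log2 fold of 0.67 (SE 0.30, edgeR unadjusted p = 0.062, adjusted p = 1.00). The pooled log2 fold of HSPA5 was 0.30 (SE 0.21, edgeR adjusted p = 1.00), and that of CLGN was 0.68 (SE 0.77, edgeR adjusted p = 1.00). These values changed when libraries were left out with the covariate kept. Without the vehicle, such a fit compares only shHDAC6 with shControl. Without shControl or shHDAC6, it compares only the drug libraries with the vehicle. Those fits thus drop a whole experiment and do not measure the weight of a single library. Without the vehicle the values were 0.11 for SDF2L1, 0.05 for HSPA5 and -0.45 for CLGN, and without ACY1215 they were 0.46, 0.13 and -0.20. Without shControl they were 1.12, 0.49 and 1.56, and without shHDAC6 1.12, 0.49 and 1.55. Left out in turn, single libraries moved the median of the set between -0.08 and 0.15, and it was below 0 without the vehicle (-0.08) and without ACY1215 (-0.03). Without the vehicle 3 genes of the whole table passed, and without ACY1215 4 genes, with 0 of them in the set. The 5 libraries do not come from repeated cultures of one treatment, so these p-values measure only the spread between different treatments.

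Each intervention was then set against its own control, with 1 library on each side and no test. Values are log2 folds of TMM-scaled CPM, with 95% intervals that cover counting error only. In ACY1215, 31 of 34 genes were higher than in the vehicle, where 50% of all genes above the floor were, and the median log2 fold was 0.29 against 0.00 (with FPKM, 0.19 against -0.10). Of the 34, 7 were at least 1.5-fold higher (5.85% of all genes were), and 2 of these, CLGN and SDF2L1, at least 2-fold (1.67% of all genes). CLGN passed the floor only through ACY1215 (29.4 CPM, against 2.96 to 6.30 CPM in the other libraries). Its place in these counts is thus not independent of the floor. The count of 7 was 4 with FPKM and 3 against shControl, where 5.24% of all genes were that much higher. None was 1.5-fold lower in ACY1215, where 7.77% of all genes were. In shHDAC6, 15 of 34 were higher than in shControl, beside 50.7% of all genes, with a median of -0.08 and none at 1.5-fold in either direction (2.81% of all genes were higher and 2.2% lower by that much). In CAY10603, 18 of 34 were higher than in the vehicle, beside 51.5% of all genes, with a median of 0.01 (-0.04 with FPKM) and 1 gene at 1.5-fold, SDF2L1 (0.345% of all genes were that much higher). Against shControl 2 genes were 1.5-fold higher in CAY10603 (3% of all genes), CLGN and ERO1LB. Both drugs are set against the same vehicle library.

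**Figure D2:**
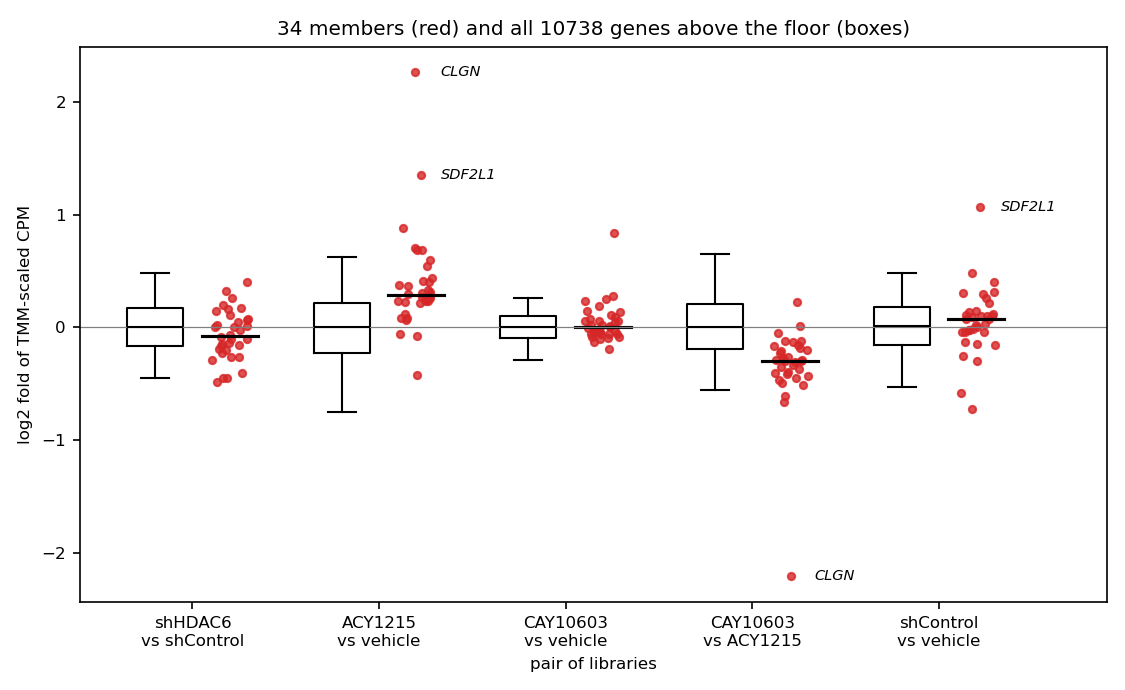
Log2 fold of TMM-scaled CPM (y axis) in 5 pairs of libraries (x axis), for the 34 genes above the floor (red points, bar at the median) and for all 10738 genes above the floor (box with quartiles and median, whiskers at the 5th and 95th percentile). The points of ACY1215 against the vehicle centre on 0.29, with CLGN at 2.27, while those of shHDAC6 centre on -0.08 and those of CAY10603 on 0.01.

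By rank among the 5 libraries, 27 of 34 genes were highest in ACY1215, where 27.5% of all genes were. The lowest library was shHDAC6 for 14 genes (23.4% of all genes) and the vehicle for 9 (17% of all genes). The other genes that peaked elsewhere were CALR, CRELD2, DERL1, DERL2 and EIF2AK3 in shControl, SEC61A1 in shHDAC6 and XBP1 in the vehicle. All 3 repressed libraries lay above both controls for 1 gene, ATF6 (4.92% of all genes; not in FPKM), and below both for 2, DERL2 and EIF2AK3 (4.57% of all genes). With shControl in place of the vehicle, ACY1215 was higher for 27 of 34 genes, with a median of 0.27, where 47.2% of all genes were higher. With the vehicle in place of shControl, 2 of 34 genes were at least 1.5-fold higher in shHDAC6 (3% of all genes) and 2 lower (3.09% of all genes). At least 2-fold apart were 2 genes, CLGN being lower and SDF2L1 higher (1.19% of all genes were that far apart in either direction).

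The chaperones and co-chaperones were higher in ACY1215 than in the vehicle in 7 of 7 cases (median log2 fold 0.33), against 4 of 7 in CAY10603 (median 0.00) and 3 of 7 in shHDAC6 against shControl (median -0.03). HSPA5, the lumenal HSP70 that also holds the sensors inactive, stood at 428 CPM in shControl, 322 CPM in the vehicle, 442 CPM in shHDAC6, 526 CPM in ACY1215 and 380 CPM in CAY10603. It was highest in ACY1215 and lowest in the vehicle, and the 2 hairpin libraries lay close together between them. Against the vehicle its log2 fold was 0.71 in ACY1215 (0.68 to 0.74) and 0.24 in CAY10603 (0.20 to 0.27), and against shControl it was 0.05 in shHDAC6 (0.02 to 0.07). The 2 controls differed by 0.41, so that against shControl the value of ACY1215 was 0.30 and that of CAY10603 was -0.17.

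SDF2L1, a partner of HSPA5 that keeps unfolded chains soluble, was at 15.9 CPM in shControl, 7.55 CPM in the vehicle, 17.1 CPM in shHDAC6, 19.3 CPM in ACY1215 and 13.5 CPM in CAY10603. The vehicle stood apart as the low library, and the other 4 lay between 13.5 and 19.3 CPM. Against it the log2 fold was 1.35 in ACY1215 (1.18 to 1.54), 0.84 in CAY10603 (0.65 to 1.03) and 1.07 in shControl (0.89 to 1.26). Against shControl the values were 0.29 in ACY1215, -0.23 in CAY10603 and 0.11 in shHDAC6, so the size for both drugs, and the direction for CAY10603, rested on which control was used. HSP90B1, the lumenal HSP90, was 0.40 higher in ACY1215 and 0.26 lower in shHDAC6 on the log2 scale. HYOU1, a large HSP70-like nucleotide exchange factor, and the J-domain proteins DNAJB9, DNAJB11 and DNAJC3 lay between 0.23 and 0.33 in ACY1215, between -0.08 and 0.00 in CAY10603 and between -0.16 and 0.17 in shHDAC6.

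Among the lectin chaperones, which hold glycoproteins by their sugar, CLGN had the widest range of the set. It stood at 4.04 CPM in shControl, 6.07 CPM in the vehicle, 2.96 CPM in shHDAC6, 29.4 CPM in ACY1215 and 6.30 CPM in CAY10603. ACY1215 was far above the other 4 libraries, which were all low. The log2 fold against the vehicle was 2.27 in ACY1215 (2.09 to 2.47), a 4.81-fold difference, and 0.05 in CAY10603 (-0.19 to 0.30). It was -0.45 in shHDAC6 against shControl (-0.75 to -0.15). With the other control it was 2.85 in ACY1215, 0.64 in CAY10603 and -1.03 in shHDAC6. The related CANX and CALR were 0.29 and 0.26 higher in ACY1215 and within 0.11 of their controls in the other interventions. CALR was 0.48 higher in shControl than in the vehicle, more than in any intervention against its own control.

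**Figure D3:**
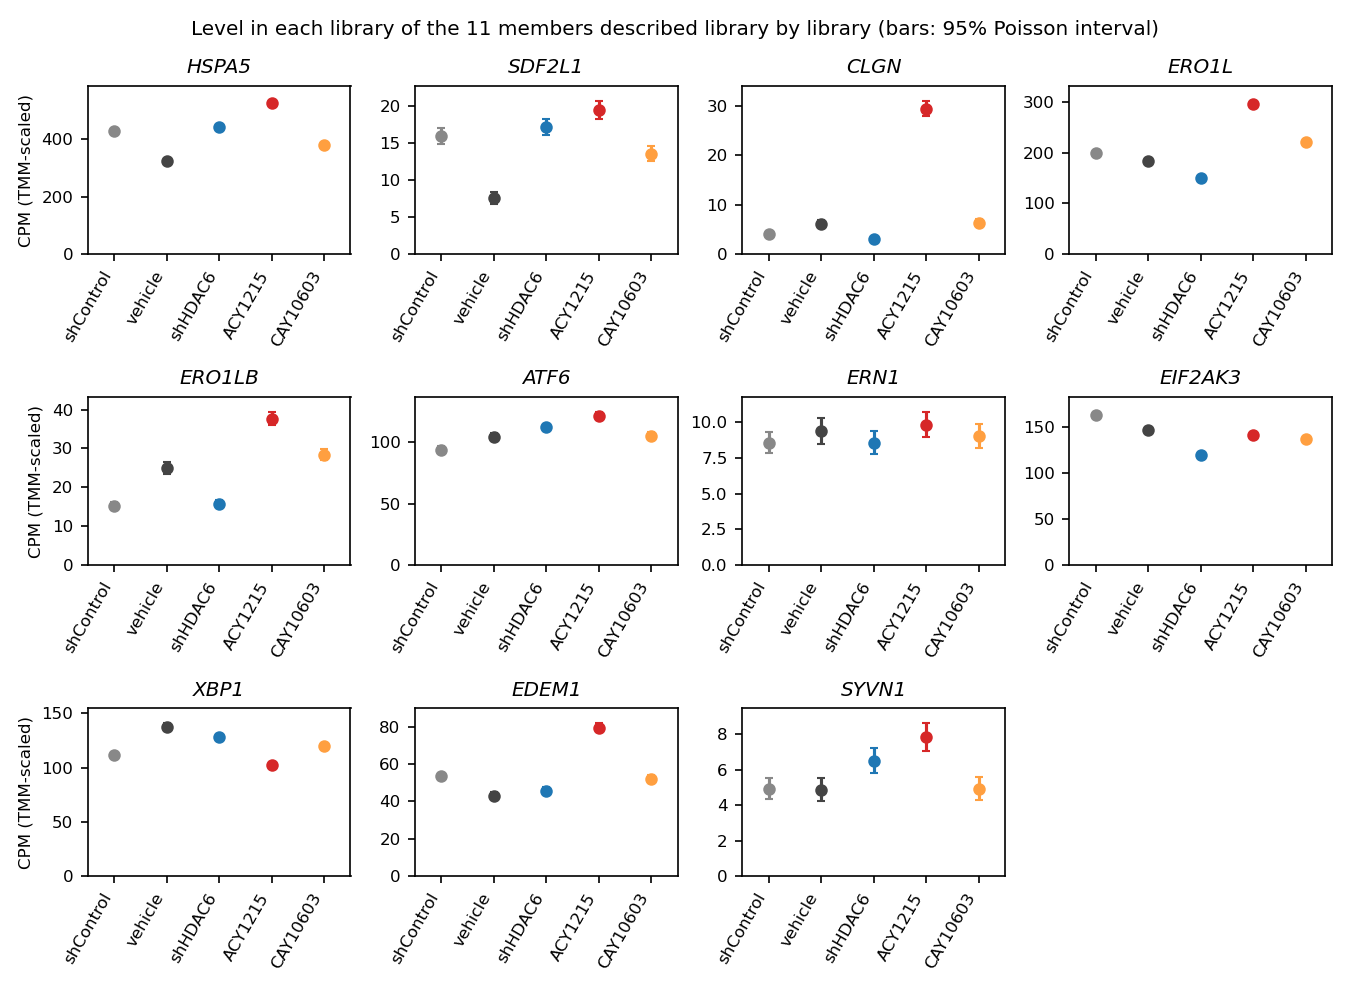
TMM-scaled CPM (y axis, from 0, with 95% Poisson intervals) in each of the 5 libraries (x axis) for the 11 genes given library by library. ACY1215 is the highest point for HSPA5, SDF2L1, CLGN and EDEM1, the vehicle is the low point for SDF2L1 and the high point for XBP1.

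Of the disulfide isomerases and oxidases, 6 of 6 were higher in ACY1215 (median log2 fold 0.39), 4 of 6 in CAY10603 (median 0.12) and 2 of 6 in shHDAC6 (median -0.18). The oxidase ERO1L, which passes electrons from the isomerases to oxygen and is also known as a hypoxia gene, was at 200 CPM in shControl, 185 CPM in the vehicle, 151 CPM in shHDAC6, 297 CPM in ACY1215 and 221 CPM in CAY10603. Its levels put shHDAC6 at the bottom and ACY1215 at the top, with CAY10603 above both controls. The log2 folds were -0.41 in shHDAC6 (-0.45 to -0.37), 0.69 in ACY1215 (0.65 to 0.72) and 0.26 in CAY10603 (0.21 to 0.30).

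Its paralogue ERO1LB, best known from pancreatic islet cells, was at 15.1 CPM in shControl, 24.9 CPM in the vehicle, 15.7 CPM in shHDAC6, 37.6 CPM in ACY1215 and 28.4 CPM in CAY10603. The 2 hairpin libraries were low and all 3 libraries of the drug experiment high, in contrast to ERO1L. The log2 fold was 0.59 in ACY1215 (0.49 to 0.70), 0.19 in CAY10603 (0.07 to 0.30) and 0.06 in shHDAC6 (-0.08 to 0.20), while shControl was 0.72 below the vehicle. Against shControl the ACY1215 value became 1.32 and that of CAY10603 0.91, and against the vehicle that of shHDAC6 became -0.66. Of the isomerases themselves, P4HB, also the beta subunit of collagen prolyl hydroxylase, was 0.55 higher in ACY1215 and 0.20 lower in shHDAC6. PDIA3, PDIA4 and PDIA6 were 0.12 to 0.24 higher in ACY1215.

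The sensors and transcription factors differed less, with none of 5 at 1.5-fold in any of the pairs. In ACY1215 3 of 5 were higher (median log2 fold 0.07), in CAY10603 1 of 5 (median -0.06) and in shHDAC6 4 of 5 (median 0.02). XBP1, whose mRNA is spliced by IRE1 to encode the active factor, was at 112 CPM in shControl, 137 CPM in the vehicle, 128 CPM in shHDAC6, 102 CPM in ACY1215 and 120 CPM in CAY10603. The vehicle was highest and ACY1215 lowest, whereas 27 of 34 genes were highest in ACY1215 and 9 were lowest in the vehicle. The log2 folds were -0.42 in ACY1215 (-0.48 to -0.37), -0.20 in CAY10603 (-0.25 to -0.14) and 0.20 in shHDAC6 (0.15 to 0.25). Against shControl those of the drugs were -0.13 and 0.10, so that the sign in CAY10603 turned with the control. The table has 1 value per gene, and the spliced form was not analysed here.

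ATF6, the membrane-bound factor that is cut to release its active part, was at 94.2 CPM in shControl, 104 CPM in the vehicle, 113 CPM in shHDAC6, 122 CPM in ACY1215 and 105 CPM in CAY10603. The 2 groups did not overlap in CPM, although CAY10603 lay only just above the vehicle (log2 fold 0.01, -0.04 to 0.07). All 3 repressed libraries lay above both controls for 4.92% of all genes above the floor, and for 2.94% of the set. In FPKM they did overlap, with 15.7 FPKM in the vehicle and 14.98 FPKM in CAY10603. The pooled log2 fold was 0.18 (SE 0.13, edgeR adjusted p = 1.00).

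EIF2AK3, the kinase PERK that phosphorylates the initiation factor eIF2 alpha, was at 163 CPM in shControl, 147 CPM in the vehicle, 119 CPM in shHDAC6, 141 CPM in ACY1215 and 136 CPM in CAY10603. Both controls were above all 3 repressed libraries, as for 4.57% of all genes above the floor and 5.88% of the set. The gap was widest in the hairpin pair. The log2 folds were -0.45 in shHDAC6 (-0.49 to -0.40), -0.06 in ACY1215 and -0.10 in CAY10603, and the pooled value was -0.24 (SE 0.14, edgeR adjusted p = 1.00). ERN1, the kinase and RNase IRE1, was at 8.57 CPM in shControl, 9.39 CPM in the vehicle, 8.58 CPM in shHDAC6, 9.83 CPM in ACY1215 and 9.03 CPM in CAY10603. These levels were within counting error of each other in each intervention against its control. CREB3L2, a related membrane-bound factor of secretory cells, was 0.27 higher in ACY1215 and within 0.02 of its control in shHDAC6 and CAY10603.

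The degradation genes clear misfolded proteins by moving them back to the cytosol for ubiquitination. Of 7 above the floor, 6 were higher in ACY1215 (median log2 fold 0.42), 3 in CAY10603 (median -0.04) and 2 in shHDAC6 (median -0.11). EDEM1, which trims mannose to mark glycoproteins for disposal, was at 53.4 CPM in shControl, 42.9 CPM in the vehicle, 45.6 CPM in shHDAC6, 79.3 CPM in ACY1215 and 51.9 CPM in CAY10603. ACY1215 was well above the rest, which lay within a narrow band. The log2 folds were 0.89 in ACY1215 (0.81 to 0.97), 0.28 in CAY10603 (0.19 to 0.36) and -0.23 in shHDAC6 (-0.31 to -0.15). Against shControl they were 0.57 in ACY1215 and -0.04 in CAY10603.

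SYVN1, the ubiquitin ligase HRD1, was at 4.92 CPM in shControl, 4.86 CPM in the vehicle, 6.52 CPM in shHDAC6, 7.84 CPM in ACY1215 and 4.92 CPM in CAY10603. Here shHDAC6 and ACY1215 were both above the other 3 libraries. The log2 folds were 0.40 in shHDAC6 (0.17 to 0.64), 0.68 in ACY1215 (0.45 to 0.93) and 0.02 in CAY10603 (-0.25 to 0.29). Its adaptor SEL1L, the mannosidase-like EDEM2 and the scaffold HERPUD1 were 0.36 to 0.44 higher in ACY1215. The channel components DERL1 and DERL2 differed by 0.08 and -0.07 there, and DERL2 was lower than the control in all 3 interventions, with intervals that included 0 for both drugs.

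The luminal stress factors MANF, a secreted trophic protein, and CRELD2, whose promoter stretch is printed above, were 0.23 and 0.08 higher in ACY1215, and lower in shHDAC6 by 0.09 and 0.29 and in CAY10603 by 0.04 and 0.08. Of the 4 genes of translocation, signal peptidase and export, 4 were higher in ACY1215 (median 0.30) and 3 each in CAY10603 (median 0.04) and shHDAC6 (median 0.04). The translocon subunits SEC61A1 and SEC61B, the coat subunit SEC24D and the signal peptidase subunit SEC11C were 0.24 to 0.37 higher in ACY1215. SEC11C was the lowest of the set in shHDAC6 against shControl, at -0.49 (-0.56 to -0.42). SEC61A1 was 0.33 higher there.

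**Figure D4:**
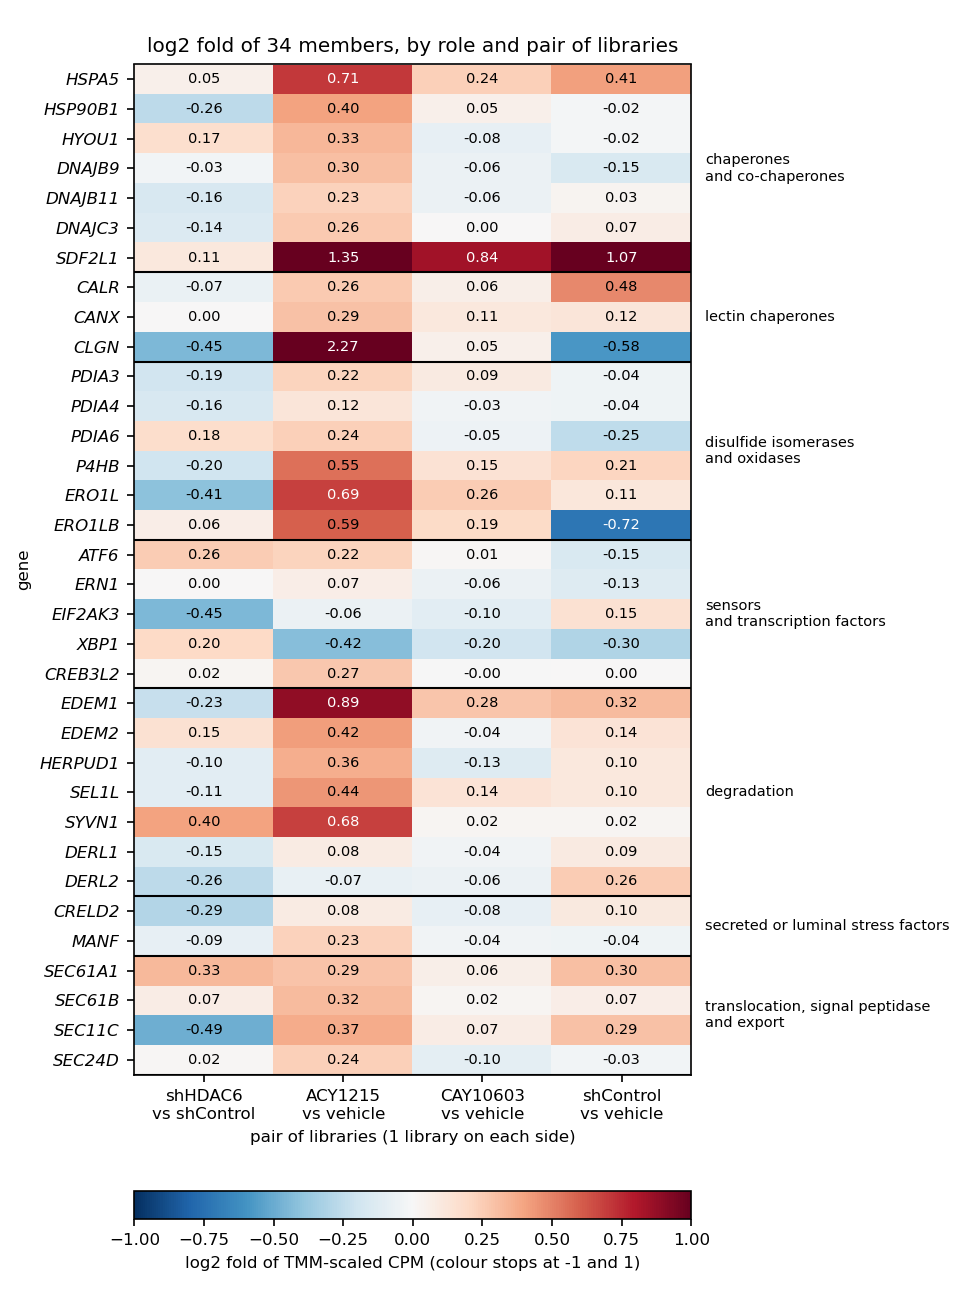
Log2 fold of TMM-scaled CPM (colour and printed value; colour stops at -1 and 1) for the 34 genes above the floor (rows, by role) in 4 pairs of libraries (columns). The ACY1215 column is positive for 31 genes, and the exceptions are XBP1, EIF2AK3 and DERL2.

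Set directly against ACY1215, the CAY10603 library was lower for 32 of 34 genes, where 50% of all genes were higher, with a median log2 fold of -0.29. The exceptions were XBP1 (0.23) and DERL2 (0.01). CLGN (-2.21, -2.40 to -2.04), SYVN1 (-0.67, -0.91 to -0.44) and EDEM1 (-0.61, -0.68 to -0.54) were at least 1.5-fold lower in CAY10603 (4.46% of all genes were), and CLGN was the 1 gene past 2-fold (1.03% of all genes). Here too, CLGN was above the floor only through its level in ACY1215. HDAC6 mRNA itself was 0.54 higher in CAY10603 than in ACY1215. The doses and times of the compounds are not stated, so compound, dose and time cannot be told apart.

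The 2 controls gave a measure of how far libraries without an intervention on HDAC6 differed. Of the 34 genes, 21 were higher in shControl than in the vehicle, where 52.3% of all genes were, with a median log2 fold of 0.07. SDF2L1 was past 2-fold higher (0.512% of all genes were) and ERO1LB at least 1.5-fold lower (3.94% of all genes were). The controls differed in experiment as well as in library, and these cannot be told apart.

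Other genes of the same compartment were read from 115 rows, of which 109 were above the floor. In ACY1215 82 of the 109 were higher than in the vehicle, with a median log2 fold of 0.13, less than the 0.29 of the set. In CAY10603 55 were higher (median 0.00) and in shHDAC6 51 (median -0.01). The lists highest in ACY1215 were the translocon and signal peptidase genes (13 of 15 higher, median 0.29) and the other folding enzymes (15 of 20 higher, median 0.20), followed by export and retrieval (15 of 17, median 0.15). Of the 109, 4 were at least 1.5-fold higher in ACY1215, where 5.85% of all genes were, and 2 were that much lower (7.77% of all genes). The 4 were SSR3, SEC61G and TRAM1 of the translocon and BAK1 of the cell death machinery, named here after their values were seen. In shHDAC6 13 of 15 glycosylation genes were higher (median 0.14) and 12 of 15 translocon genes lower (median -0.11). FKBP2, a lumenal prolyl isomerase, was the 1 gene past 2-fold in that pair, at -1.37 (71.4 CPM in the control library against 27.6 CPM in the hairpin library).

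The outputs of the PERK and ATF4 branch were lower in both drug libraries than in the vehicle, but were mixed against shControl. All 8 above the floor were lower than in the vehicle in ACY1215 (median log2 fold -0.37) and in CAY10603 (median -0.40), and 7 of 8 were lower in shControl than in the vehicle (median -0.66). Against shControl, 4 of 8 were higher in ACY1215 (median -0.02) and 6 of 8 in CAY10603 (median 0.30), so the direction of the list as a whole rested on the control used. In shHDAC6 7 of 8 were higher than in shControl (median 0.14). SESN2 and PPP1R15A, named after their values were seen, were lower in both drug libraries than in either control. SESN2 was at 79.2 CPM in shControl, 67.2 CPM in the vehicle, 51.6 CPM in ACY1215 and 51.1 CPM in CAY10603. DDIT3, the stress factor CHOP, was at 8.82 CPM in shControl, 20.4 CPM in the vehicle, 9.66 CPM in shHDAC6, 7.59 CPM in ACY1215 and 11.1 CPM in CAY10603. The vehicle was high and the other 4 low, with log2 folds against it of -1.42 in ACY1215, -0.87 in CAY10603 and -1.20 in shControl. ASNS, the asparagine synthetase, was likewise 1.01 lower in shControl than in the vehicle. ATF4 itself, named after its values were seen, was at 510 CPM in the vehicle and 329 CPM in shControl. The vehicle was thus the highest library for DDIT3 and ATF4 and the lowest for HSPA5 and SDF2L1, and its part in the results of the drug pairs is measured here only by the values against shControl.

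**Figure D5:**
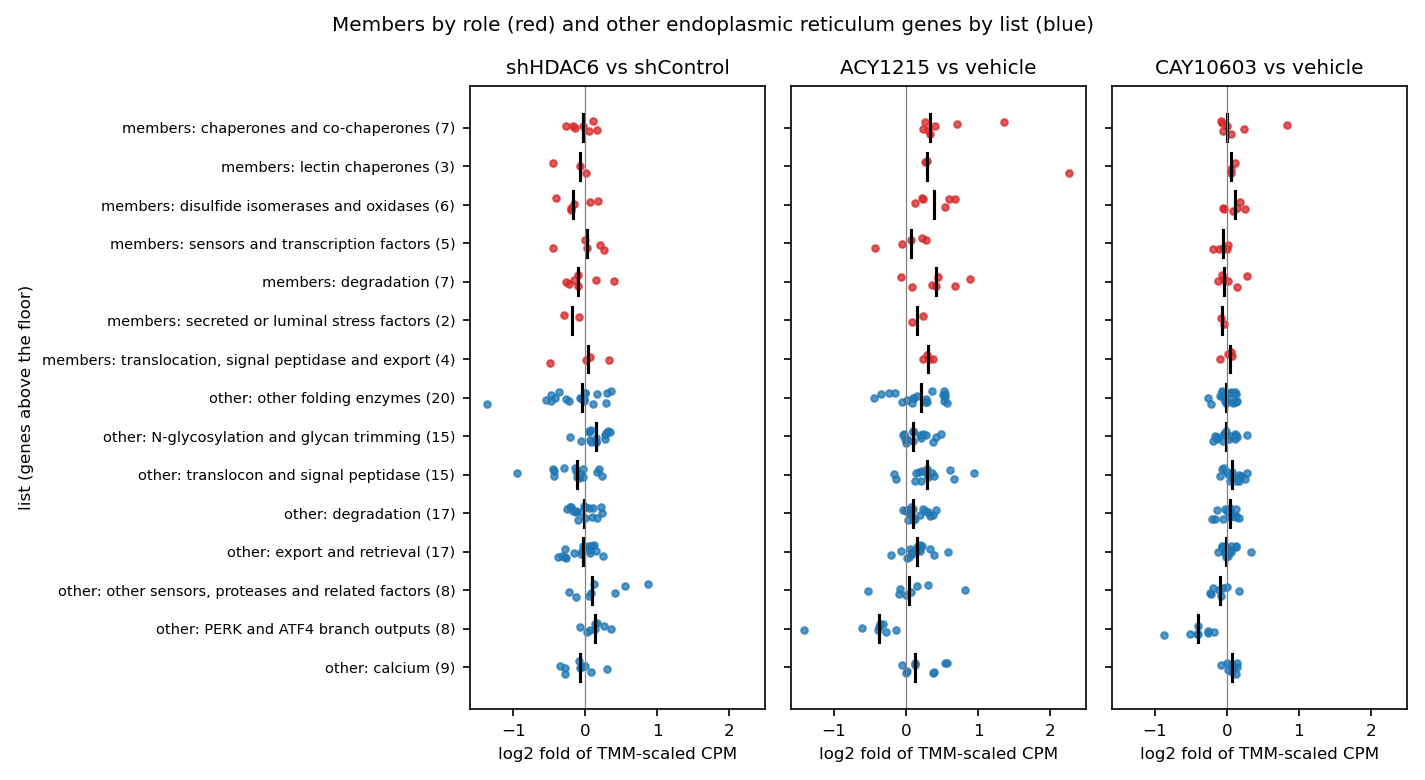
Log2 fold of TMM-scaled CPM (x axis) of each gene above the floor (points, bar at the median) by list (y axis, number of genes in brackets), for the set by role (red) and for other endoplasmic reticulum genes (blue), in 3 pairs of libraries. In ACY1215 every red list has its median above 0, and the PERK and ATF4 outputs have theirs at -0.37 (-0.02 with shControl as control).

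Genes with and without a promoter element were set side by side. In ACY1215 against the vehicle, 10 of the 11 genes with an ERSE or ERSE-II were higher (median log2 fold 0.33), with XBP1 the exception, and 18 of the 20 matched genes without one were (median 0.30). CLGN, with the widest range, held none of the letters searched. In CAY10603 6 of 11 with an element were higher (median 0.05) and 11 of 20 without (median 0.01). In shHDAC6 7 of 11 with an element were higher than in shControl (median 0.05) and 7 of 20 without (median -0.12). No test was made of these differences.

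Features of counting also bear on single genes. Exons of PDIA3, PDIA6, DNAJB9, DNAJB11, SYVN1, SEC61A1 and DERL3 overlap those of a protein-coding neighbour on the other strand in the GENCODE annotation (MRPL49 for SYVN1 and RUVBL1 for SEC61A1), and those of CALR, EDEM1, EIF2AK3, ERO1L, HYOU1, P4HB and DERL1 overlap an antisense gene. Whether the authors counted by strand is not given in the sources used here, so reads of these partners cannot be told apart. On the same strand, exons of DNAJB11 overlap those of the protein-coding AC068631.2, and those of HSP90B1 overlap the microRNA MIR3652. Counting by strand would not separate these 2 pairs. The pseudogene rows HSP90B2P (0.985 to 1.74 CPM) and PDIA3P (1.71 to 2.36 CPM) were low beside HSP90B1 and PDIA3.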

How the data were processed

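RNA of 5 TOV21G libraries was isolated with Trizol and made into stranded total RNA libraries, per the labels' protocols. The deposited table gives expected counts per gene, as whole numbers, and FPKM, both of them values that the authors computed and deposited. The submitters' processing notes name RSEM 1.2.3, the hg19 build and edgeR. Which aligner, annotation and strand setting the authors used is not stated there. DMSO in a column name was taken to mean the vehicle, and 2 rows without a symbol were left out.

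Total counts were 57442767 in shControl, 43498805 in the vehicle, 51563718 in shHDAC6, 54620960 in ACY1215 and 48776359 in CAY10603. The pooled comparison used edgeR 4.0.16 in R 4.3.3 on the deposited counts, with TMM scaling, a robust quasi-likelihood F test, a term for experiment type and 2 residual degrees of freedom, on genes that reached 1 CPM in 2 or more libraries. Alternatives used DESeq2 1.42.0, limma 3.58.1 (voom), RLE size factors, no filter, no covariate and each library left out. Pairs of single libraries used the log2 of CPM after TMM scaling (prior count 2), a floor on the mean of 5 CPM, and exact binomial 95% intervals of the ratio of counts, whose median half-width over these genes was 0.05 to 0.06. For these genes the alternatives were a prior count of 0.5, a floor of 1 CPM and FPKM with a pseudocount of 0.1. The other control and the mean of both controls were also used. Levels of all 5 libraries are given for genes 1.5-fold apart in any pair and for HSPA5 and the main sensors, and other genes by range. Other endoplasmic reticulum genes are named when 2-fold apart in a pair. The script of the pooled comparison was tested on simulated data. The members and gene lists were chosen with earlier results of these data known. Promoters are RefSeq windows of GRCh38.p14, matched by Entrez gene number. No protein sequence was used here.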

Additional observations from a re-analysis of the deposited data

Results flagged for a closer look

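Only the genes given library by library were searched for opposite directions in shHDAC6 and both drug libraries, each against its control. In 3 of them the directions were opposite, with counting intervals clear of 0 in each pair. The share of all genes with such directions is not given here, so the pattern cannot be read as particular to these genes. XBP1 had log2 folds of 0.20 in shHDAC6 against shControl, -0.42 in ACY1215 against the vehicle and -0.20 in CAY10603 against the vehicle. For EDEM1 these values were -0.23, 0.89 and 0.28. For ERO1L they were -0.41, 0.69 and 0.26. The difference between the hairpin and the drugs was not tested, since each pair has 1 library on each side, and both drugs share the vehicle library. With the other control in each pair, XBP1 was at -0.10 in shHDAC6, -0.13 in ACY1215 and 0.10 in CAY10603, EDEM1 at 0.09, 0.57 and -0.04, and ERO1L at -0.30, 0.57 and 0.14. The opposite directions thus remained with either control for ERO1L alone of the 3. Outside the genes searched, HSP90B1, P4HB, PDIA3, SEL1L and CALR met the same rule. By CPM, HSP90B1, PDIA3 and SEL1L kept the opposite directions with either control. For SEL1L the margin was narrow, at 142.5 CPM in shHDAC6 and 142.8 CPM in the vehicle.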

How the results depend on the processing

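Of 66 single-gene log2 folds recomputed with the other control or with the mean of both controls, 13 changed sign. Under the other settings 5 of 165 did. The mean still holds the control of the pair itself, and the 66 values pool both choices. Of values that were at least 1.5-fold at first, 1 changed sign, SDF2L1 in CAY10603, which went from 0.84 to -0.23 with shControl as control, the vehicle being its low library. With the vehicle as control, 2 genes of shHDAC6 were past 2-fold (0 with shControl), namely CLGN (-1.03) and SDF2L1 (1.18). With the mean of both controls, 1 gene of ACY1215 was past 2-fold in place of 2. With FPKM, which moves the median of all genes in ACY1215 against the vehicle to -0.10, the median of the set was 0.19 there (28 of 34 higher, beside 37.3% of all genes), and -0.23 in CAY10603 against ACY1215. In CAY10603 against the vehicle it was -0.04 with 13 of 34 higher. Leaving out each library gave 0 to 4 genes called in the pooled comparison, 3 without the vehicle (control replicate 2) and 4 without ACY1215 (repressed HDAC6 replicate 2), of which 0 were in the set. Without CLGN and SDF2L1, an alternative chosen after seeing the data, 0 genes were past 2-fold in ACY1215 against the vehicle, in CAY10603 against ACY1215 and in shControl against the vehicle. No paired analysis was possible because the replicate numbers only name the libraries and the treatments differ. With 1 library per treatment, the spread between repeated cultures is unknown, and depth limits low genes such as DERL3.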

Other observations

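Outside the set, 14 genes above the floor held an ERSE or ERSE-II in a RefSeq promoter window. They include SERP1, a translocon-associated stress protein, NUCB1, a calcium-binding Golgi protein, and ALG12, a mannosyltransferase of N-glycan assembly. In ACY1215 against the vehicle 6 of the 14 were higher, with a median log2 fold of -0.04 and a range from -1.38 (SHCBP1) to 0.44. In CAY10603 against the vehicle 7 of 14 were higher (median 0.01), and in shHDAC6 against shControl 8 of 14 (median 0.03). No test was made between these genes and the set.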
